A study of Sus scrofa with 24 samples.

Results

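The genes described here are 10 core members of the cellular antioxidant defence: SOD1, SOD2, CAT, GPX1, GPX4, NFE2L2, HMOX1, NQO1, GCLC and TXNRD1. They were chosen by name from the 38882 genes counted in the hippocampus of young piglets, and all 10 were found and passed the filter on low counts. RNA came from 24 piglets on postnatal day 14, with 6 piglets in each of 4 groups, which cross birth size (AGA or SGA) with diet (CON or HF). AGA piglets were of appropriate size for gestational age and SGA piglets were small for gestational age by natural birth weight, so no gene or vessel was manipulated. CON is the control formula and HF is a formula with hydrolyzed fat, and all piglets were PIC Camborough × PIC 359 crosses of either sex. Each SGA piglet was matched by sex with an AGA sibling fed alike, which gives 12 litters (6 per formula) brought in as 2 cohorts. The comparisons ask whether birth size, formula or their combination changed the transcripts of these genes.

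Superoxide leaks from mitochondria and oxidases and is turned into hydrogen peroxide by superoxide dismutases, SOD1 mainly in the cytosol and SOD2 in the mitochondrial matrix. Peroxide is then removed by catalase (CAT) in peroxisomes and by glutathione peroxidases, of which GPX1 acts on soluble peroxides and GPX4 on lipid peroxides within membranes. NFE2L2 encodes NRF2, a transcription factor held low by KEAP1 and released under oxidative or electrophilic stress. Its classic targets include the haem-degrading enzyme HMOX1, the quinone reductase NQO1, GCLC, the catalytic subunit of the enzyme that limits glutathione synthesis, and the cytosolic thioredoxin reductase TXNRD1. The developing brain is rich in polyunsaturated lipid and iron and is commonly regarded as exposed to oxidative damage.

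Between 6017336 and 9284355 reads per library were counted on genes, so 3 reads corresponded to 0.323 to 0.499 CPM (reads scaled to a common library total). HMOX1, the member with the fewest reads, still had 33 to 100 reads in every library. Markers of neurons (SLC17A7, SYT1, SNAP25) and of hippocampal neurons (NEUROD2, PROX1) were present, while ZBTB20 had a median of 0 CPM and was not tested. AGA CON 2 and AGA HF 4 stood apart, with the lowest summed neuronal markers (2717 and 3441 CPM) and the highest summed astrocyte markers (14663 and 14419 CPM). The next lowest neuronal sum was 4551 CPM in AGA HF 6, and the SGA libraries ran from 5047 to 7017 CPM. SGA HF 4 stood apart in another way, with 390 CPM of summed pituitary markers against at most 44.5 CPM elsewhere. Without it, 0 of 10 members passed the threshold used below in any contrast, as with it. No 2 replicates looked like the same library deposited again, since the chi-square per gene was at least 5.91 in all 60 replicate pairs, where sampling noise alone gives about 1.

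The members spanned a wide range of abundance in all groups. Compared per kilobase (kb) of exon, SOD1 had the highest level at 674 ± 62.6 CPM per kb (SD, n = 24), followed by GPX4 at 348 ± 42.2 and GPX1 at 296 ± 106. CAT followed at 36.0 ± 4.53 CPM per kb. TXNRD1 averaged 17.0 ± 1.02, SOD2 15.6 ± 2.05 and NFE2L2 12.0 ± 2.14 CPM per kb, and the inducible targets GCLC (7.05 ± 1.24), NQO1 (6.03 ± 1.03) and HMOX1 (4.55 ± 1.27) were lowest. The ranges of SOD1 and GPX4 did not overlap, nor did those of CAT and TXNRD1, whereas every other pair of neighbours in this order overlapped between libraries. Within libraries, GPX1 was still above CAT in 23 of 24 and NFE2L2 above GCLC in 24 of 24. In the other overlapping pairs the order held in 17 (GPX4 above GPX1) to 22 (SOD2 above NFE2L2) of 24 libraries. SOD1 exceeded 99.4% of the 16326 tested genes per length, and HMOX1 46.5%. The order of the lower members depended on dividing by exon length. In plain CPM, NFE2L2 (33.5) and GCLC (28.2) averaged above SOD2 (26.1), while SOD1 (432), GPX4 (310) and GPX1 (236) remained highest. Whether reads covered the exons evenly was not checked.

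**Figure D1:**
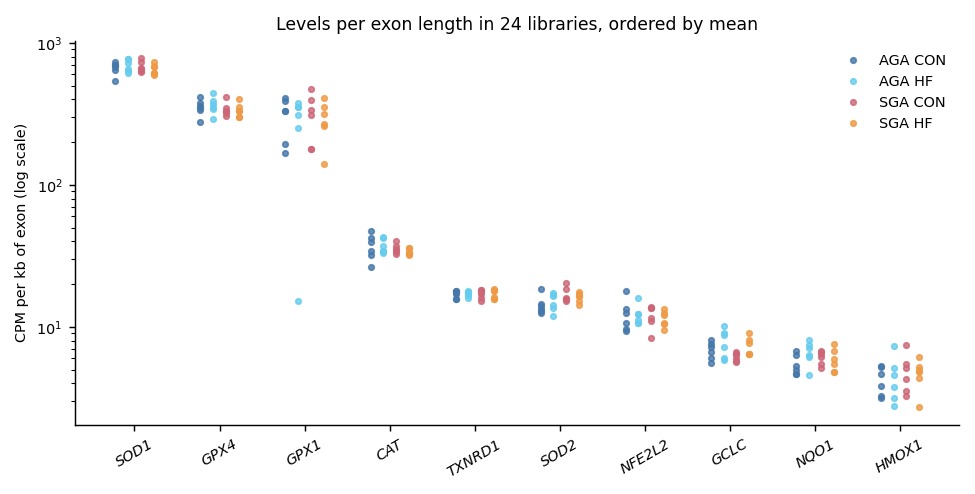
Level of each gene in CPM per kb of exon (y axis, log scale), with 1 point per library coloured by group and genes ordered by mean. SOD1, GPX4 and GPX1 sit well above the other 7 genes, and 1 AGA HF library lies far below the rest for GPX1.

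No member differed between sizes, between formulas or in their interaction at the threshold of the study's heat maps, a false discovery rate (FDR) under 0.4 by edgeR's quasi-likelihood test with Benjamini-Hochberg adjustment over all genes and 7 contrasts. For SGA minus AGA, 0 of 10 members passed, where 0.876% of all tested genes did. For HF minus CON the count was 0 of 10 against a background of 0.294%, and for the interaction 0 of 10 against 0.123%. The same held in each pairwise comparison, with backgrounds of 0.257% for SGA CON minus AGA CON, 0.594% for SGA HF minus AGA HF, 0.178% for AGA HF minus AGA CON and 0.184% for SGA HF minus SGA CON. The background itself was unstable: the 143 genes called for size became 6 without SGA HF 5 and 813 without SGA HF 3. With backgrounds this low, a count of 0 among 10 genes is what the share of all genes would give and says nothing particular about them.

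The median log2 fold change of the members was 0.016 for size (0.011 over all genes), 0.019 for formula (0.0046 over all genes) and -0.037 for the interaction (0.0068 over all genes). For SGA minus AGA, 5 members were above 0 and 5 below, where 53.5% of all tested genes were above 0. At an unadjusted p under 0.05 there was 1 member for size (10.4% of all genes), 0 for formula (7.05%) and 0 for the interaction (4.03%), and among the pairwise contrasts 1 member, NQO1, for AGA HF minus AGA CON (6.07%). For every one of the 60 pairs of groups compared gene by gene, the ranges of the libraries overlapped. The share of all tested genes with such overlap was not computed, so this says nothing particular about the members.

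**Figure D2:**
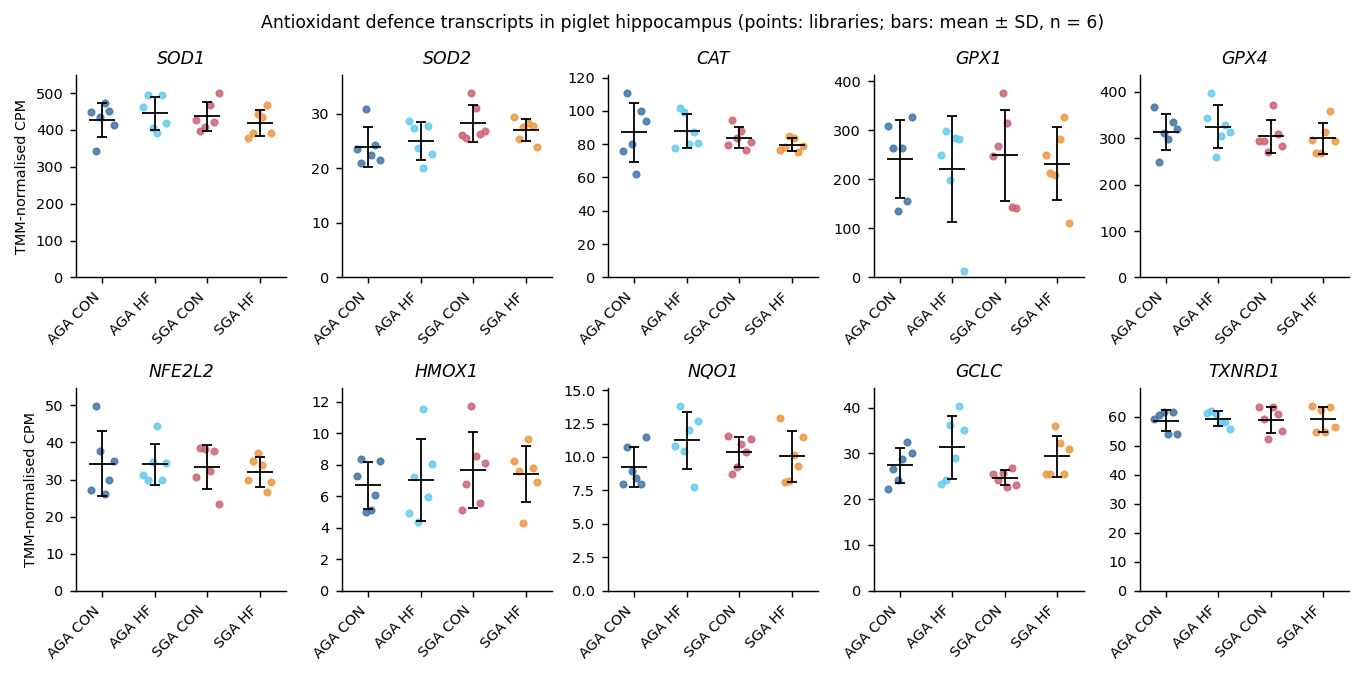
TMM-normalised CPM (y axis from 0, own scale per gene) of each gene in the 4 groups; points are libraries, black bars are mean ± SD (n = 6 per group). The groups overlap for every gene, and GPX1 has the widest spread, with AGA HF 6 at 12.2 CPM.

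**Figure D3:**
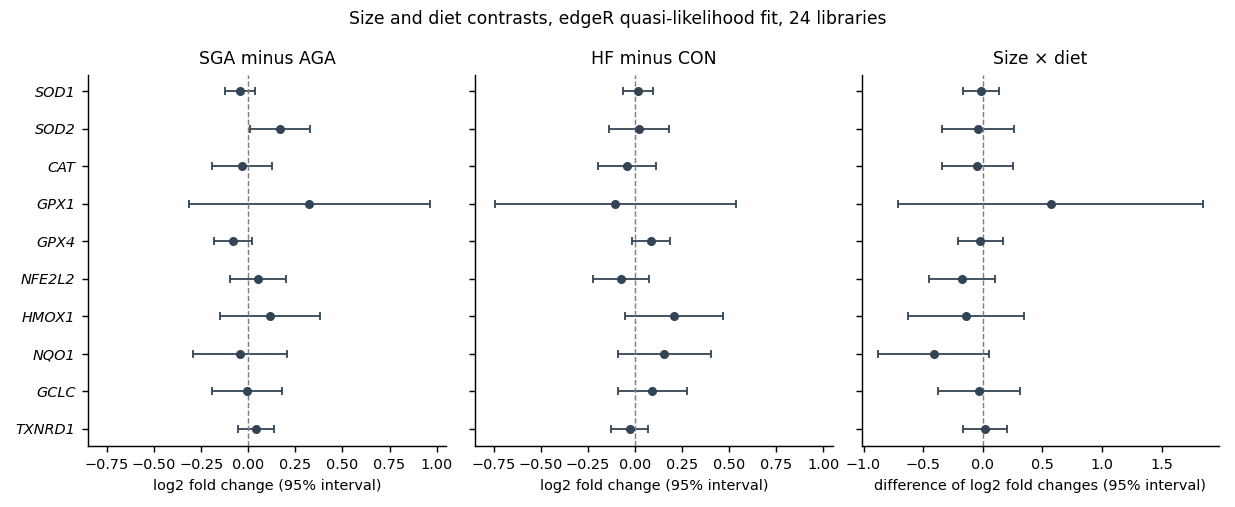
Log2 fold changes with 95% intervals from edgeR's quasi-likelihood fit for size, formula and their interaction (x axes; the first 2 panels share a scale). The interval of SOD2 for size runs from 0.008 to 0.33 and does not reach 0, and the intervals of GPX1 are the widest.

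SOD2, on chromosome 1 (9475310 to 9485526, Sscrofa10.2), came closest to a difference by birth size. In AGA CON it ran from 21.0 to 30.9 CPM with a median of 23.0, and in SGA CON from 25.6 to 33.8 CPM with a median of 26.6. In AGA HF it ran from 20.1 to 28.8 CPM (median 25.6) and in SGA HF from 23.95 to 29.5 CPM (median 27.7). The SGA groups lay higher at their lowest, median and highest libraries on each formula, and the AGA and SGA ranges overlapped.

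Within litters the SGA piglet had more SOD2 RNA than its AGA littermate in 10 of 12 litters, 6 of 6 on CON and 4 of 6 on HF. The mean difference in log2(CPM + 1) was 0.17 ± 0.18 (SD of 12 litters), with p = 0.00391 in an exact two-sided sign-flip test over litters, unadjusted for the 10 genes tested this way. No other member had p below 0.18 in that test. The share of all genes with so small a sign-flip p was not computed, so the SOD2 value has no background beside it. In the fit over all genes the log2 fold change was 0.17 (SE 0.077), with an unadjusted p of 0.0405 and FDR = 0.712 by edgeR's quasi-likelihood test, so the difference is not a call. Its interaction with formula was -0.039 (SE 0.14).

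The 2 lowest SOD2 values of all 24 libraries were in AGA HF 4 (20.1 CPM) and AGA CON 2 (21.0 CPM), the libraries with the fewest neuronal and most astrocyte markers. Leaving out litters 4 and 7, which hold them, SGA was higher in 8 of 10 litters by 0.14, with p = 0.0156 in the exact sign-flip test, and the all-gene fit without those libraries gave 0.15 with an unadjusted p of 0.0619. In a bulk tissue, fewer cells of a type and less RNA per cell cannot be told apart. Between sizes, 4 of 5 tested neuronal markers were above 0 for SGA minus AGA, with a median of 0.020 (0.011 over all genes). So were 3 of 3 hippocampal neuron (median 0.17), 4 of 5 endothelial (0.099) and 2 of 3 choroid plexus markers (0.18). Red blood cell (3 of 3, median 0.17) and pituitary markers (3 of 3, 0.15) were above 0 too. Fewer were above 0 for oligodendrocytes (0 of 6, median -0.16) and meningeal fibroblasts (1 of 6, -0.097). Astrocytes (3 of 7, median -0.012) and microglia (3 of 7, -0.015) lay near 0. Of all tested genes, 53.5% were above 0. Summed oligodendrocyte markers ran from 13466 to 24929 CPM in the AGA libraries and from 11372 to 22749 CPM in the SGA libraries. The part of these markers in the SOD2 difference was not tested beyond leaving out those litters.

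**Figure D4:**
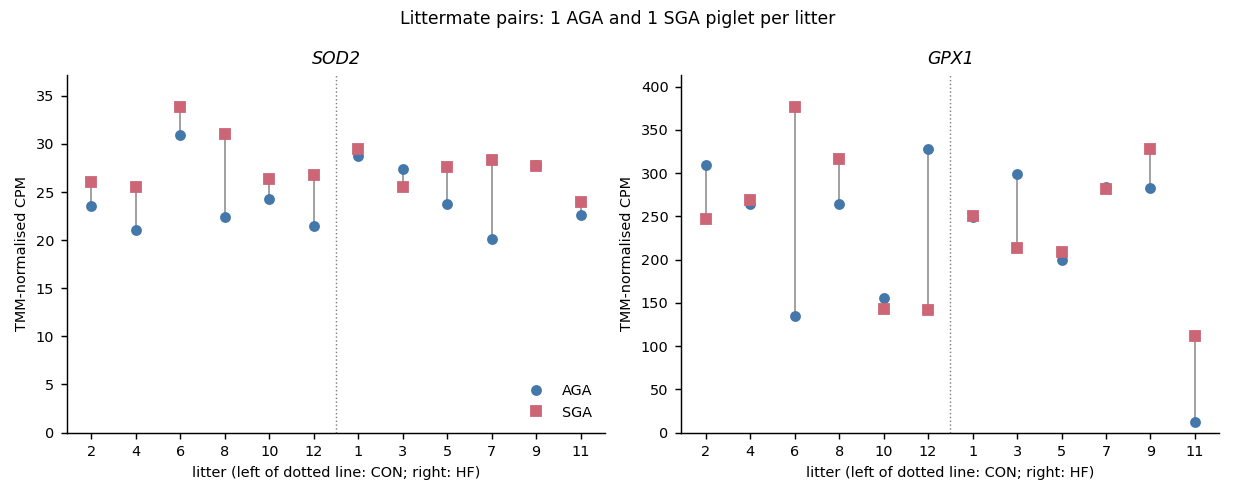
SOD2 (left) and GPX1 (right) in each litter, as TMM-normalised CPM from 0 (y axis), with the AGA and the SGA littermate joined by a line and CON litters left of the dotted line. For SOD2 the SGA piglet is higher in 10 of 12 litters, and for GPX1 both piglets of litter 11 are the lowest of all.

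GPX1 was the most variable member. It lies on chromosome 13 (35147277 to 35148345, Sscrofa10.2) as a short gene with 2 exons. Its biological coefficient of variation (BCV), the edgeR estimate of spread beyond counting noise within groups, was 0.484, higher than in 95.7% of tested genes and in 99.4% of the 500 genes nearest in abundance. In AGA CON GPX1 ran from 135 to 327 CPM (median 264) and in SGA CON from 142 to 376 CPM (median 258). In AGA HF it ran from 12.2 to 299 CPM (median 266) and in SGA HF from 111 to 328 CPM (median 232). Low libraries occurred in each group, and no group stood apart.

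AGA HF 6 had 94 GPX1 reads, or 12.2 CPM with a 95% exact Poisson interval of 9.86 to 14.9 CPM that covers counting error only. This was 4.75% of the median of 257 CPM over all libraries. The next lowest library was its littermate SGA HF 6 at 111 CPM, so litter 11 held the lowest pair. Of the 3940 genes with a median of at least 50 CPM, only 4, GPX1 included, had a lowest library as far below their median. The nearest tested genes on either side were near their medians in AGA HF 6: USP4 at 36.4 CPM (median 37.4) and RHOA at 293 CPM (median 305). AGA HF 6 also had the lowest summed hippocampal neuron markers of all libraries (373 CPM). Its summed meningeal fibroblast markers were the highest (242 CPM). The part of tissue composition in its GPX1 value was not tested.

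Low GPX1 did not follow litter throughout. In litter 10 both piglets were low (155 CPM in AGA and 143 CPM in SGA). In litter 6 only the AGA piglet was low (135 against 376 CPM), and in litter 12 only the SGA piglet (142 against 327 CPM). These 6 libraries lay between 12.2 and 155 CPM, and the other 18 between 200 and 376 CPM. Without AGA HF 6, the coefficient of variation over libraries was 29.0% (n = 23), against 35.8% with it, and the AGA HF mean was 263 ± 39.96 CPM (SD, n = 5) in place of 221 ± 108 CPM (n = 6). With all 24 libraries, SGA minus AGA was 0.32 with a 95% interval from -0.32 to 0.96 on the log2 scale (edgeR's FDR = 0.894). Without AGA HF 6 it was 0.13, and leaving out any other library gave at most 0.55.

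The cytosolic dismutase SOD1 was steady. Its group means were 427 ± 45.7 CPM in AGA CON, 445 ± 44.98 in AGA HF, 437 ± 39.4 in SGA CON and 418 ± 35.5 in SGA HF (SD, n = 6 each). The 95% interval of SGA minus AGA ran from -0.12 to 0.04 and that of HF minus CON from -0.06 to 0.09 on the log2 scale.

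GPX4, the only one of these enzymes that reduces lipid peroxides in membranes, had group means of 313 ± 39.7 CPM in AGA CON, 324 ± 45.8 in AGA HF, 304 ± 35.5 in SGA CON and 299 ± 33.3 in SGA HF. HF minus CON was 0.09 (95% interval -0.01 to 0.19), with an unadjusted p of 0.0856 and edgeR's FDR = 0.782. With the litter as the unit it was 0.015, with p = 0.831 in an exact permutation test of 6 HF against 6 CON litter means.

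CAT averaged 87.1 ± 17.7 CPM in AGA CON, 87.8 ± 10.23 in AGA HF, 83.9 ± 6.32 in SGA CON and 79.8 ± 3.85 in SGA HF. The AGA libraries ran from 62.0 to 111 CPM and spanned all SGA libraries, which ran from 75.6 to 94.2 CPM. Size gave -0.03 (SE 0.076) and formula -0.04 (SE 0.075) on the log2 scale.

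NFE2L2, the regulator itself, ran from 26.2 to 49.8 CPM in AGA CON, 29.8 to 44.6 in AGA HF, 23.4 to 38.4 in SGA CON and 26.5 to 37.2 in SGA HF, with medians of 32.5, 32.9, 35.01 and 31.8 CPM. The 2 highest libraries, AGA CON 2 (49.8 CPM) and AGA HF 4 (44.6 CPM), were again those with the most astrocyte markers, and they also had the most microglial markers (237 and 215 CPM summed). The part of these cell types in the NFE2L2 values was not tested. SGA minus AGA was 0.05 (SE 0.072) and turned to -0.07 without the surrogate variables, so no direction can be given.

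NQO1 had the largest interaction estimate of the members after GPX1. It ran from 7.95 to 11.5 CPM in AGA CON (median 8.69), 7.73 to 13.8 in AGA HF (median 11.4), 8.75 to 11.5 in SGA CON (median 10.7) and 8.12 to 12.9 in SGA HF (median 9.74). AGA piglets on HF had a higher median than AGA piglets on CON, and the SGA groups had the opposite order, all with overlap. AGA HF minus AGA CON was 0.36 (SE 0.17), with an unadjusted p of 0.0396 and FDR = 0.709, SGA HF minus SGA CON was -0.05 (SE 0.16), and the interaction was -0.41 (95% interval -0.88 to 0.05) with FDR = 0.778, all by edgeR's quasi-likelihood test. NQO1 had 47 to 107 reads per library.

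GCLC, on chromosome 7 (31702759 to 31747437, Sscrofa10.2), had the smallest p for formula by litter. It ran from 22.3 to 32.5 CPM in AGA CON (median 27.6) and 22.7 to 26.8 in SGA CON (median 24.9), and from 23.4 to 40.3 in AGA HF (median 32.0) and 25.6 to 36.1 in SGA HF (median 28.3). The 4 highest libraries were all from HF litters, and the lower ends of the groups overlapped. The difference of HF and CON litter means was 0.20 on the log2(CPM + 1) scale, with p = 0.0779 in an exact two-sided permutation test, which can reach 0.00216 at the lowest.

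On 12 litter sums with formula, sex and cohort in the model, GCLC gave 0.21 (SE 0.09) with an unadjusted p of 0.0347 and FDR = 0.999 by edgeR's quasi-likelihood test. It was the 1 member of 10 with p under 0.05, where 3.9% of all genes were, and 0 of 10 passed the FDR threshold against 0.00613% of all genes. In the fit with surrogate variables the difference was 0.09 (SE 0.089). Without the SGA HF 3 library, GCLC passed the FDR threshold in AGA HF minus AGA CON (0.24, FDR = 0.374) and in SGA HF minus AGA HF (-0.26, FDR = 0.391), and it was the only member called in any of the alternative fits. In that fit calls rose for all genes too, from 29 to 489 and from 97 to 919 of the 16326 tested in these 2 contrasts.

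HMOX1 RNA was low throughout, from 4.30 to 11.7 CPM. The highest libraries were SGA CON 3 (11.7 CPM) and AGA HF 4 (11.5 CPM), in groups with medians of 7.44 and 6.57 CPM. HF minus CON was 0.21 (95% interval -0.05 to 0.47) in the fit with surrogate variables and 0.00017 (SE 0.18) on litter sums.

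TXNRD1 was at the other extreme from GPX1. It ran from 52.3 to 63.5 CPM over all 24 libraries, and its BCV of 0.078 was lower than in all but 0.564% of tested genes. Among the 500 genes nearest in abundance, 2.4% had a lower BCV. SGA minus AGA was 0.04 (95% interval -0.06 to 0.14) and HF minus CON -0.03 (95% interval -0.13 to 0.07).

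Sex and cohort were compared on the litter sums, since each litter has a single sex and cohort. For cohort, 0 of 10 members passed an FDR of 0.4 by edgeR's quasi-likelihood test, where 9.46% of all genes did. Among 10 genes, a count of 0 is not far from that share and says nothing particular about the members. The smallest member FDR in this test was 0.527 for GCLC. For sex, 0 of 10 passed against 0.19% of all genes.

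NFE2L2 RNA was compared with its 4 targets across the 12 litter means of log2(CPM + 1), after the mean of each formula was subtracted. Pearson's r was 0.21 with HMOX1, -0.09 with NQO1, 0.14 with GCLC and -0.05 with TXNRD1. Spearman's rho was 0.22, -0.04, 0.08 and -0.07 in the same order. None of the 4 relations had support (permutation p of r 0.519, 0.781, 0.654 and 0.872, and of rho 0.486, 0.903, 0.801 and 0.834; adjusted p 0.872 for every r and 0.903 for every rho). Without the 2 litters farthest from the median NFE2L2, r was -0.29, -0.23, 0.23 and 0.01. Within cohorts, r with HMOX1 was 0.22 and 0.55, with NQO1 -0.40 and 0.19, with GCLC 0.47 and 0.17, and with TXNRD1 -0.36 and -0.14. The formula means subtracted there were those over all 12 litters. NRF2 is regulated largely through protein stability, so its RNA level is not a measure of its activity.

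For each member, the tested gene whose deviations from the group means were most alike over 24 libraries was listed as a description, since libraries share their depth and tissue composition. The closest were PDAP1 for SOD1 (Pearson's r = 0.93), PPP2R1A for GPX4 (0.92), CNN3 for NFE2L2 (0.89), ACAP2 for GCLC (0.87) and C1QC, a complement gene of microglia, for HMOX1 (0.86). For GPX1 it was SLC10A5, a gene at 2.47 CPM (0.78, with a Spearman's rho of only 0.58), for TXNRD1 VMA21 (0.76), for CAT IRF2 (0.75), for SOD2 VPREB3 (0.74) and for NQO1 UXT (0.67).

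Of 66 other redox genes in 6 lists, 54 were tested and 0 passed an FDR of 0.4 in any contrast. For SGA minus AGA, 22 of 54 were above 0 (53.5% of all tested genes) with a median of -0.03 (0.011 over all genes). Of the 54, 6 had an unadjusted p under 0.05 by edgeR. That is close to the 10.4% of all tested genes below this p, so the 6 are given as values only. Of these 6, NFE2L1, a relative of NFE2L2, was higher in SGA (0.25, edgeR's unadjusted p = 0.0249). The other 5 were lower in SGA, and 2 of them encode the subunits of the iron store ferritin. Markers of oligodendrocytes (0 of 6 above 0 for SGA minus AGA, median log2 fold change -0.16) and of meningeal fibroblasts (1 of 6, -0.097) moved the same way. Those of astrocytes (3 of 7, median -0.012) and microglia (3 of 7, -0.015) lay near 0. The medians of the other marker lists were above 0. The part of tissue composition in these values was not tested.

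The ferritin light chain FTL averaged 1460 ± 203 CPM in AGA and 1236 ± 175 CPM in SGA (SD, n = 12). Its log2 fold change was -0.19 (SE 0.062), with an unadjusted p of 0.00588 and FDR = 0.538 by edgeR's quasi-likelihood test. The heavy chain FTH1, named after its values were seen, gave -0.08 (edgeR's unadjusted p = 0.0335). In the edgeR quasi-likelihood test, lower values in SGA were also fitted for the peroxiredoxin PRDX2 (-0.10, unadjusted p = 0.0292, FDR = 0.678), the selenium carrier SELENOP (-0.14, unadjusted p = 0.0298, FDR = 0.679) and the metallothionein MT1A (-0.14, unadjusted p = 0.0468, FDR = 0.731).

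For HF minus CON, 35 of the 54 genes were above 0 (51.5% of all tested genes) with a median of 0.03. By edgeR, 3 had an unadjusted p under 0.05, no larger a share than the 7.05% of all tested genes. They were the peroxiredoxin PRDX1 (-0.17, FDR = 0.667), the constitutive haem oxygenase HMOX2 (-0.09, FDR = 0.667) and the glutaredoxin GLRX3 (0.09, FDR = 0.726). The other genes named by rule were TXNRD3 (-0.13, FDR = 0.82), the cystine transporter subunit SLC3A2 (-0.12, FDR = 0.769) and SQSTM1, which binds KEAP1 (-0.05, FDR = 0.848). The NADPH-forming enzyme ME1 gave -0.13 for size (FDR = 0.777). KEAP1, the NRF2 inhibitor, was listed at 0 reads in every library and could not be tested, and whether its entry in this annotation is complete was not checked, so this is not a measure of its expression.

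**Figure D5:**
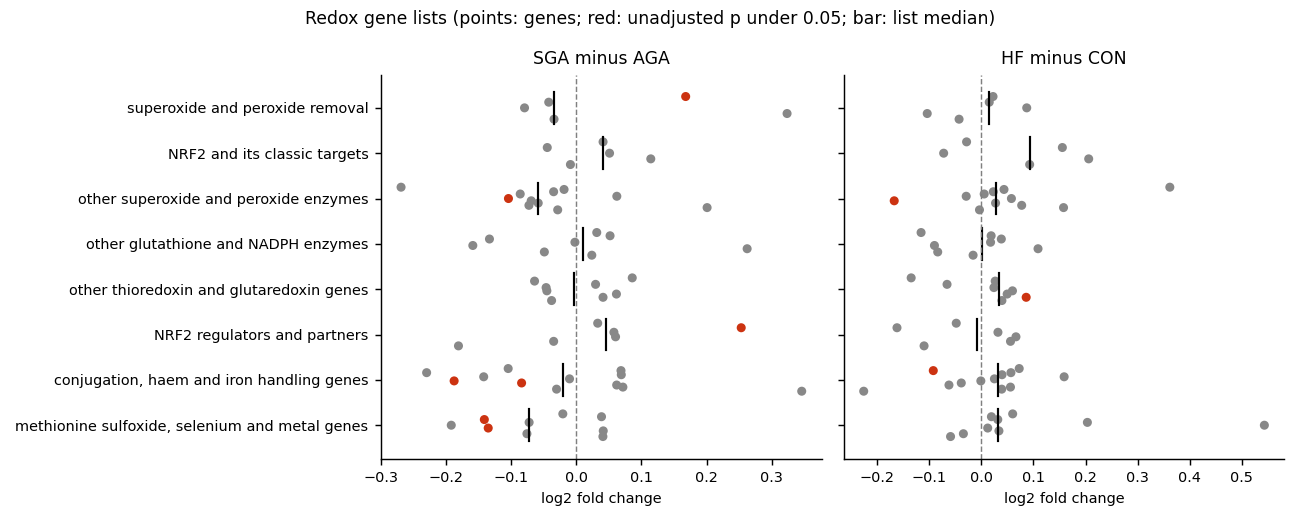
Log2 fold changes for size (left) and formula (right) of the tested genes in the 2 lists of members and the 6 lists of other redox genes. Each point is a gene, red where the unadjusted p is under 0.05, and the bar is the list median; most points lie within 0.2 of 0 and none passed the FDR threshold.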

How the data were processed

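Libraries were made from polyA RNA with a stranded kit. The authors trimmed the reads (Trimmomatic 0.33), aligned them to Sscrofa10.2 (STAR 2.5.2a) and counted reads on exons of each gene with featureCounts (Subread 1.5.0), using strand. They deposited whole-number counts per gene, unfiltered. By default this counting drops reads with several alignments, and near-identical copies elsewhere were not searched here. No member shared an exon with another listed gene on either strand. Gene identifiers were paired with Sscrofa11.1 symbols (23036 of 38882 matched, 15993 with a symbol). An entry without an identifier (0.613% to 1.62% of a library's counts) was left out.

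Counts were analysed in R 4.3.3 with edgeR 4.0.16. The main fit used TMM normalisation, the 16326 genes that reached 1 CPM in 3 or more libraries, and groups, sex and 5 surrogate variables (sva 3.50.0, prior count 2), tested by quasi-likelihood with Benjamini-Hochberg adjustment over all genes and 7 contrasts together, and called at FDR under 0.4. CPM were scaled by TMM. Littermates were compared in log2(CPM + 1) by exact sign-flip tests (4096 flips) and formulas by exact permutation of litter means (924 splits). Same-numbered piglets on a formula are littermates per the labels, which is where the pairing comes from. The consensus litter correlation was 0.113. Alternatives used limma 3.58.1 and DESeq2 1.42.0. The main fit was also run on simulated counts that held no litter or cohort structure, so that run does not bear on those sources of spread.

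The members and the lists were chosen with earlier results of these data known. All members were to be named, with the other redox genes that passed FDR 0.4 or, failing that, the 2 per list with the smallest unadjusted p for size or formula, and the most alike gene for each member. The pairwise contrasts share groups, so their values are not independent. Lists of 10 cell types served as markers.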

Additional observations from a re-analysis of the deposited data

Results flagged for a closer look

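Within the 4 groups of 6 libraries, the 10 genes gave 40 sets of values, and in 3 sets a single library lay far from the others by Dixon's test. Chance alone gives such a gap in about 1 in 20 sets. GPX1 was at 12.2 CPM in AGA HF 6, the lowest of its group and of all libraries. SOD2 was at 30.9 CPM in AGA CON 3, the highest of its group. NFE2L2 was at 44.6 CPM in AGA HF 4, the highest of its group, in a library whose summed astrocyte and microglial markers ranked 2 of 24. Their causes were not tested.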

How the results depend on the processing

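No member passed an FDR of 0.4 for size, formula or their interaction in any of 14 alternative settings or 24 fits that each left out 1 library. Without SGA HF replicate 3 the count went from 0 to 1 in SGA HF minus AGA HF and in AGA HF minus AGA CON, GCLC in both, while calls over all genes went from 97 to 919 and from 29 to 489, and it stayed at 0 in these contrasts without any other library. By littermate pair the count with an exact sign-flip p under 0.05 ranged from 1 to 2 when 1 litter was left out. The second was CAT without litter 8 (exact sign-flip p = 0.0283). By formula over litters the count of exact permutation tests went from 0 to 1, GCLC in each case. That occurred with plain library totals (exact permutation p = 0.0303) or without litter 1 or 3. The exact tests were run on the members only. The share of all genes passing them was not computed, so these counts cannot be set against a background. SOD2 for size ranged from 0.11 to 0.24 over the other settings, stayed above 0 in all of them, and had its smallest FDR at 0.448 (main 0.712). Its sign-flip p ranged from 0.00195 to 0.00781 when 1 litter was left out.

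With the litter as a replicate block, the pairing that the labels give, the size difference was 0.18 for SOD2 (edgeR's FDR = 0.477) and -0.054 for NFE2L2 and 0.0071 for NQO1, and the interaction 0.057 for GCLC and -0.016 for TXNRD1. As a correlated replicate block the values were, for size, -0.051 for NFE2L2 and 0.0083 for NQO1, for formula, -0.0018 for SOD1, -0.0021 for SOD2 and 0.012 for TXNRD1, and for the interaction, 0.054 for GCLC and -0.015 for TXNRD1. Neither block changed a call for the members, although 395 genes in all passed for size with the litter block against 143 without it.

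Among the values of single members for size, formula and interaction, 1001 kept their direction and 109 changed sign, none of them a call in either setting and their cause not tested. Without surrogate variables the changed values were -0.066 for NFE2L2 and 0.0035 for NQO1 (size), -0.0033 for SOD1 and 0.011 for TXNRD1 (formula), and 0.051 for GCLC and -0.016 for TXNRD1 (interaction). With cohort as a term instead they were -0.067, 0.0031, -0.0012, 0.011, 0.047 and -0.016 in the same order. In cohort 1 alone they were 0.051 for GCLC and -0.042 for TXNRD1 (size), -0.30 for HMOX1 and 0.034 for TXNRD1 (formula), and -0.49 for GPX1, 0.16 for NFE2L2, 0.066 for HMOX1 and 0.0052 for GCLC (interaction). In cohort 2 alone they were 0.022 for SOD1, 0.022 for GPX4, -0.13 for NFE2L2 and 0.078 for NQO1 (size), -0.067 for SOD1, -0.016 for SOD2, -0.0054 for GPX4 and 0.093 for NFE2L2 (formula), and 0.0093 for GPX4, 0.097 for GCLC and -0.056 for TXNRD1 (interaction). On litter sums they were -0.0015 for SOD1 and 0.014 for TXNRD1 (formula). Leaving out AGA CON 2 and AGA HF 4 together, chosen after seeing the data, they were -0.00011 for SOD1 and 0.038 for CAT (formula), and 0.036 for GCLC and -0.033 for TXNRD1 (interaction).

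Leaving out 1 library at a time, values that crossed 0 ranged for size from -0.10 to 0.0018 for GPX4, -0.089 to 0.062 for NQO1 and -0.17 to 0.043 for GCLC. For formula they ranged from -0.013 to 0.031 for SOD1, -0.015 to 0.062 for SOD2, -0.089 to 0.016 for CAT, -0.22 to 0.059 for GPX1, -0.099 to 0.017 for NFE2L2 and -0.039 to 0.016 for TXNRD1. For the interaction they ranged from -0.036 to 0.019 for SOD1, -0.13 to 0.063 for SOD2, -0.14 to 0.027 for CAT, -0.17 to 0.84 for GPX1, -0.073 to 0.085 for GPX4, -0.27 to 0.13 for HMOX1, -0.17 to 0.12 for GCLC and -0.059 to 0.044 for TXNRD1.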
